A study of Homo sapiens with 6 samples.

Results

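Integrins, laminins and the proteins of focal adhesions were examined in MDA-MB-231 breast cancer cells with and without silencing of HMGA1. The set was fixed as a list of 41 genes, with 12 integrin alpha chains, 8 integrin beta chains, 9 laminin chains and 12 proteins of focal adhesions. A gene was measured where the platform annotation gives a transcript of the array to that gene alone, and where it gives more than 1, the transcript of the highest mean was used. By this rule 36 of the 41 genes were measured, among 22011 transcripts in all. Of the other genes, 4 (ITGA1, ITGA4, LAMB3 and TLN1) share their transcript with another gene and 1 (LAMA3) is given to no annotated transcript, so none of these is described here.

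MDA-MB-231 is an established human line of triple-negative breast cancer, grown here in serum. Cells received siRNA against HMGA1 or a control siRNA by lipofection (3 samples each, the knockdowns from independent experiments), and RNA was taken at 48 hours and hybridized to Affymetrix exon arrays. The sample labels name the HMGA1 treatment both as shRNA and as siRNA, and it is taken here as siRNA, as the design text states. Both groups come from 1 cell line, with no other allele or agent. The values are log2 expression after RMA, a procedure that corrects the background, scales the arrays to each other and summarizes the probes of each transcript.

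Integrins are receptors of 1 alpha and 1 beta chain that bind cells to the extracellular matrix. The laminins are trimers of an alpha, a beta and a gamma chain that build the basement membrane and are bound by several integrins. Inside the cell, talin and kindlins switch integrins on, and vinculin, paxillin, zyxin and the complex of integrin-linked kinase with parvin couple them to actin, while the kinases FAK and SRC pass on the signal. In breast epithelium integrin alpha6 beta4 anchors basal cells to laminin, and in invasive cells integrins carry traction during migration.

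Expression of HMGA1 itself was 9.81, 9.65 and 9.76 on the HMGA1 siRNA arrays and 10.11, 10.25 and 10.35 on the control siRNA arrays, read from a transcript shared with its pseudogene HMGA1P8. The groups did not overlap, and the difference of -0.50 (log2, standard error 0.10) did not pass in limma (adjusted p = 0.806). With 3 arrays in each group the precision is limited by their number. The median of all transcripts lay between 8.28 and 8.38 on the arrays, and the correlation between arrays between 0.982 and 0.995. In several genes below, the array numbered replicate 3 differed from the others in the same direction in both groups. This was picked out after the values were seen. As a check of the label, all 6 markers of a mesenchymal-like basal line (VIM, CD44, EGFR, CAV1, AXL and MSN) were above background. Of the luminal markers 6 of 8 were above background with HMGA1 siRNA and 5 of 8 with control siRNA. GATA3, FOXA1, CDH1, EPCAM and TFF1 were above it in both groups, and ESR1 and PGR in neither. ERBB3, at 7.53 with HMGA1 siRNA and 7.48 with control siRNA, was above only the lower limit of the HMGA1 siRNA group. CDH1, the E-cadherin of epithelial cells, was counted above background by its group means, but was at 8.78, 9.01 and 7.28 on the HMGA1 siRNA arrays and at 9.40, 9.34 and 7.56 on the control siRNA arrays, so that the replicate 3 array of each group lay under the limit used below. Of the leukocyte markers 1 of 4 (CD14) and of the endothelial markers 1 of 4 (TIE1) was above background in both groups, and PTPRC and PECAM1 were not. By their control siRNA means, all measured luminal, leukocyte and endothelial markers lay below the stricter limit given below. All 6 mesenchymal-like markers lay above it.

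To find which chains were expressed, each level was set against the transcripts of 220 olfactory receptor genes, which are not expected to be expressed in breast cancer cells. A gene was called above background where its group mean was over the 95th percentile of these transcripts, which was 7.50 with HMGA1 siRNA and 7.61 with control siRNA. The probes of a transcript set part of its level, so this limit sorts genes only coarsely and levels of different genes are not ranked. Of the 36 genes, 26 were above background in HMGA1 siRNA cells and 26 in control siRNA cells, against 63.9% of all transcripts with control siRNA. With a stricter limit, the 95th percentile of 62 transcripts of keratin-associated proteins, taste receptors and beta-defensins, 21 of the 36 genes were above background in each group.

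**Figure D1:**
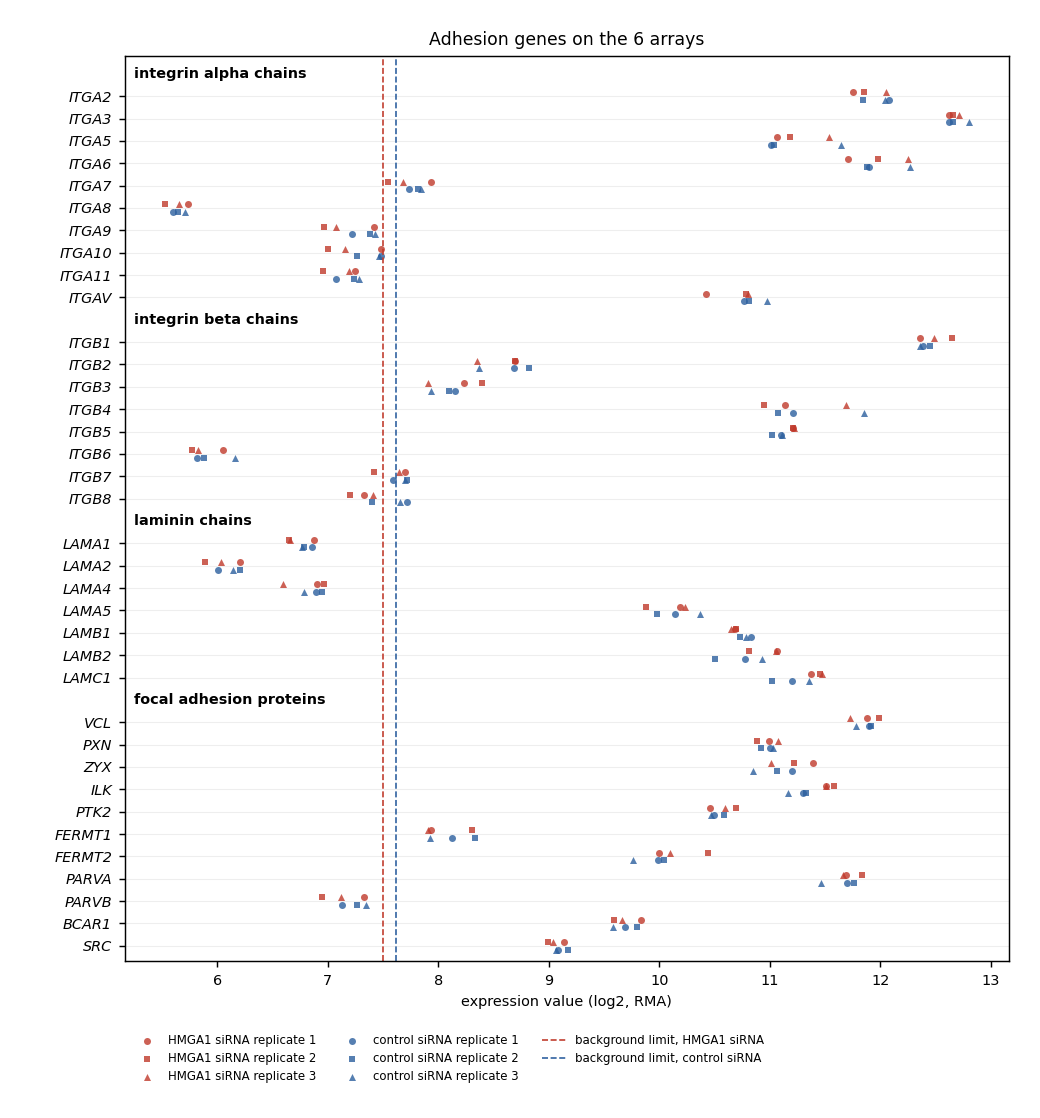
Expression values (log2, x axis) of the 36 measured adhesion genes on each of the 3 HMGA1 siRNA arrays (red) and the 3 control siRNA arrays (blue), with the marker shape giving the replicate number and dashed lines the background limits of 7.50 and 7.61. The levels run from the range of olfactory receptors up to 12.8 with no clear break at the limits, and within each gene the groups mostly overlap.

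Among the alpha chains, 6 of 10 were above background in both groups, those of ITGA2, ITGA3, ITGA5, ITGA6, ITGA7 and ITGAV. ITGA2, a chain of the collagen receptor alpha2 beta1, was at 11.76, 11.85 and 12.05 on the HMGA1 siRNA arrays and at 12.08, 11.85 and 12.04 on the control siRNA arrays. ITGA3, the partner of beta1 in a laminin receptor, was at 12.62, 12.66 and 12.72 on the HMGA1 siRNA arrays and at 12.62, 12.65 and 12.80 on the control siRNA arrays. The arrays of each group overlapped for both chains. ITGAV, which pairs with several beta chains and binds vitronectin and fibronectin, was at 10.42, 10.79 and 10.81 on the HMGA1 siRNA arrays and at 10.77, 10.81 and 10.97 on the control siRNA arrays. HMGA1 siRNA replicate 1 was the low value for ITGAV, and the other arrays of the groups overlapped. ITGA7, a chain best known from muscle, was at 7.72 ± 0.20 (SD, n = 3) with HMGA1 siRNA and 7.80 ± 0.06 (SD, n = 3) with control siRNA, close to the limit. ITGA8, ITGA9, ITGA10 and ITGA11 were not above background, with group means from 5.64 to 7.40.

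All 8 beta chains of the list were measured and 6 were above background in both groups. ITGB1, the chain shared by most matrix-binding integrins, was at 12.36, 12.65 and 12.48 on the HMGA1 siRNA arrays and at 12.39, 12.45 and 12.36 on the control siRNA arrays. Its groups overlapped, with HMGA1 siRNA replicate 2 the highest array. ITGB5, which forms a vitronectin receptor with alphaV, was at 11.21, 11.21 and 11.22 on the HMGA1 siRNA arrays and at 11.10, 11.02 and 11.11 on the control siRNA arrays. Here every HMGA1 siRNA array was above every control siRNA array. ITGB3, the chain of alphaV beta3, was at 8.23, 8.39 and 7.90 on the HMGA1 siRNA arrays and at 8.15, 8.10 and 7.94 on the control siRNA arrays. ITGB3 lay above the limit set by olfactory receptors and below the stricter one of 8.84 for HMGA1 siRNA and 8.92 for control siRNA. ITGB2, the chain of leukocyte integrins, was at 8.69, 8.69 and 8.35 on the HMGA1 siRNA arrays and at 8.68, 8.82 and 8.37 on the control siRNA arrays, also below the stricter limit.

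ITGB7, a chain of lymphocyte integrins, was at 7.70, 7.41 and 7.64 on the HMGA1 siRNA arrays and at 7.59, 7.72 and 7.70 on the control siRNA arrays. Its control siRNA mean was 0.053 above the limit, and in each group 1 array lay under the limit of that group. ITGB8, a chain that with alphaV activates latent TGF-beta, was just under the limit, by 0.025 with control siRNA. ITGB6, the chain of an epithelial receptor for latent TGF-beta, was at 5.88 ± 0.15 (SD, n = 3) with HMGA1 siRNA and 5.95 ± 0.18 (SD, n = 3) with control siRNA, within the range of olfactory receptors.

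Of 24 known integrin pairs, both chains were above background in 10 with control siRNA. These were alpha2 beta1, alpha3 beta1, alpha5 beta1, alpha6 beta1, alpha7 beta1, alphaV beta1, alphaV beta3, alphaV beta5, alpha6 beta4 and alphaIIb beta3, the last a platelet receptor. In 8 pairs a chain was not above background and 6 pairs hold a chain without a transcript of its own. With the 99th percentile of olfactory receptors as the limit the number of pairs was 8, as alpha7 and alphaIIb dropped out, and with the stricter limit it was 7, as alphaV beta3 dropped out too. The remaining pairs include the receptors for collagen (alpha2 beta1), fibronectin (alpha5 beta1), laminin (alpha3 beta1, alpha6 beta1 and alpha6 beta4) and vitronectin (alphaV beta5). Messenger RNA of both chains does not show that the pair was on the cell surface, which was not measured.

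**Figure D2:**
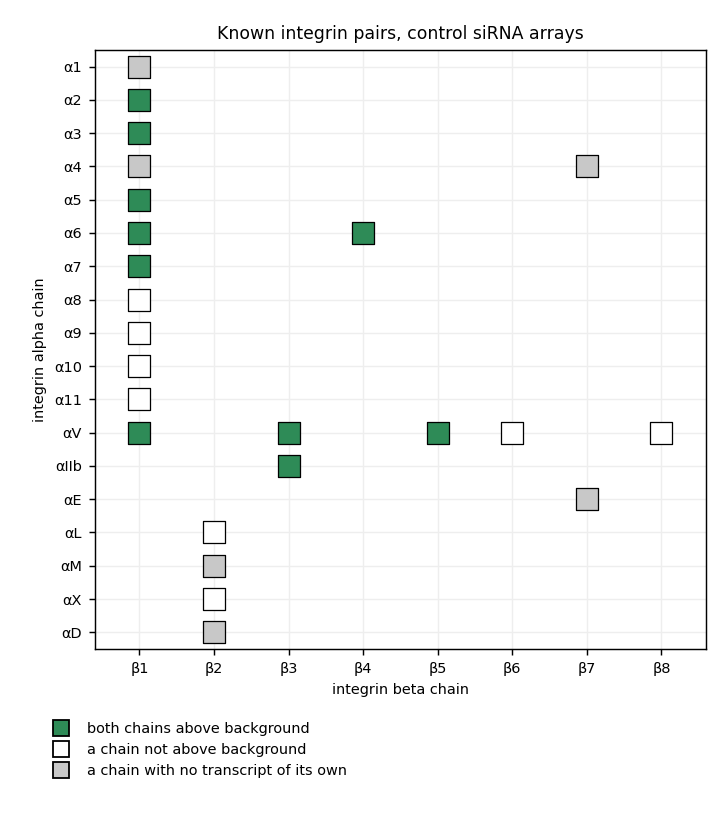
Known integrin pairs by alpha chain (y axis) and beta chain (x axis), filled green where both chains were above background on the control siRNA arrays, white where a chain was not, and grey where a chain has no transcript of its own. Of the 24 pairs 10 are green, and 6 of these share the beta1 chain.

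Among the laminin chains, LAMA5, LAMB1, LAMB2 and LAMC1 were above background in both groups under each limit, and LAMA1, LAMA2 and LAMA4 were not, with group means from 6.04 to 6.88. Of 11 laminin trimers, 2 had every chain above background, those made of the alpha5 chain with beta1 or beta2 and gamma1. Another 3 hold the alpha3 chain and could not be scored. Trimers with the gamma3 chain were not among the 11 and were not scored. The gene of that chain, LAMC3, was at 8.39 with HMGA1 siRNA and 8.52 with control siRNA. These means lay above the limit set by olfactory receptors and below the stricter one. LAMA5 was at 10.19, 9.88 and 10.23 on the HMGA1 siRNA arrays and at 10.14, 9.98 and 10.37 on the control siRNA arrays. LAMB2, the beta2 chain of laminins in mature basement membrane, was at 11.06, 10.81 and 11.06 on the HMGA1 siRNA arrays and at 10.77, 10.51 and 10.93 on the control siRNA arrays. The groups of LAMA5 and LAMB2 overlapped, with replicate 2 the lowest array in each group of both genes.

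LAMC1, the gamma1 chain common to most laminins, was at 11.37, 11.45 and 11.48 on the HMGA1 siRNA arrays and at 11.20, 11.02 and 11.35 on the control siRNA arrays. LAMB1, the beta1 chain, was at 10.69, 10.70 and 10.65 on the HMGA1 siRNA arrays and at 10.83, 10.73 and 10.79 on the control siRNA arrays. For both chains the groups did not overlap, LAMC1 being higher and LAMB1 lower with HMGA1 siRNA, by differences that did not pass the test described below.

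Of the 11 measured proteins of focal adhesions, 10 were above background in both groups and PARVB, the beta-parvin, was not. ILK, the pseudokinase that joins integrin tails to parvin, was at 11.51, 11.58 and 11.51 on the HMGA1 siRNA arrays and at 11.30, 11.33 and 11.17 on the control siRNA arrays. Every HMGA1 siRNA array was above every control siRNA array. FERMT2, or kindlin-2, which activates integrins together with talin, was at 10.00, 10.44 and 10.10 on the HMGA1 siRNA arrays and at 9.99, 10.04 and 9.76 on the control siRNA arrays. ZYX, the LIM protein zyxin of actin-bound adhesions, was at 11.39, 11.22 and 11.01 on the HMGA1 siRNA arrays and at 11.20, 11.06 and 10.85 on the control siRNA arrays. For these genes the groups overlapped. FERMT1, the kindlin of keratinocytes, was at 8.05 ± 0.22 (SD, n = 3) with HMGA1 siRNA and 8.13 ± 0.20 (SD, n = 3) with control siRNA, below the stricter limit. The adaptors VCL, PXN and BCAR1, the alpha-parvin PARVA and the kinases PTK2 (FAK) and SRC had group means from 9.06 to 11.87 and groups that overlapped.

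To ask whether silencing HMGA1 shifted these genes, limma's moderated test was fitted to the whole table and p-values were adjusted over all transcripts. No adhesion gene passed an adjusted p of 0.05 (0 of 36, each with adjusted p = 1.00), and 0% of all transcripts did. At an unadjusted p under 0.05 there were 2 of the 36 genes, ILK and ITGB8, beside 3.31% of all transcripts, and the unmoderated test gave 3 genes before adjustment, beside 3.88% of all transcripts, and 0 after it. The groups did not overlap in 4 of the 36 genes, or 11.1%, beside 7.79% of all transcripts. In 3 of them, ILK, LAMC1 and ITGB5, the HMGA1 siRNA arrays were higher, beside 4.28% of all transcripts, and in 1, LAMB1, they were lower, beside 3.51%. The count moved to 13 without HMGA1 siRNA replicate 1 (26.9% of all transcripts), to 7 without HMGA1 siRNA replicate 3 (15.1% of all transcripts) and to 9 without both replicate 3 arrays (22.8% of all transcripts). In bulk RNA, fewer cells that express a gene and less RNA per cell cannot be told apart.

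The log2 fold change of ILK was 0.26 (standard error 0.09, unadjusted p = 0.0207 in limma), or 1.20-fold with a 95% confidence interval of 0.05 to 0.48 on the log2 scale. Within replicate numbers the differences of ILK were 0.21, 0.25 and 0.34. Where groups do not overlap, as for ILK, LAMC1, ITGB5 and LAMB1, these differences share a sign under any pairing. Their sign therefore adds nothing to the separation of the groups. LAMC1 was at 0.24 (standard error 0.11), with differences of 0.17, 0.43 and 0.12, and LAMB2 also at 0.24 (standard error 0.14), with 0.29, 0.30 and 0.13. FERMT2 was at 0.25 (standard error 0.14), with differences of 0.0054, 0.39 and 0.34, so the first pair of arrays showed almost none. ZYX was at 0.17 (standard error 0.14), above 0 within each replicate number although its groups overlapped. ITGB5 was at 0.14 (standard error 0.08). LAMB1 was at -0.10 (standard error 0.08), with differences of -0.14, -0.038 and -0.14.

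Among the receptors, ITGB8 was the most negative of the 36 genes, at -0.28 (log2, standard error 0.12, unadjusted p = 0.0464 in limma). It was at 7.33, 7.20 and 7.41 on the HMGA1 siRNA arrays and at 7.72, 7.40 and 7.65 on the control siRNA arrays, values at the background limit that overlapped between control siRNA replicate 2 and HMGA1 siRNA replicate 3. ITGAV was at -0.18 (standard error 0.13), ITGB1 at 0.10 (standard error 0.10) and ITGB4 at -0.12 (standard error 0.25). ITGA9, a chain of tenascin receptors, was at 7.41, 6.96 and 7.08 on the HMGA1 siRNA arrays and at 7.22, 7.38 and 7.42 on the control siRNA arrays. ITGA10, a chain of a collagen receptor of cartilage, was at 7.48, 7.00 and 7.15 on the HMGA1 siRNA arrays and at 7.48, 7.26 and 7.46 on the control siRNA arrays. Both genes were below the background limit and their groups overlapped. Over the 36 genes the log2 fold changes ran from -0.28 to 0.26, and the 95% confidence intervals, unadjusted for the number of genes, lay between -0.71 and 0.58.

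**Figure D3:**
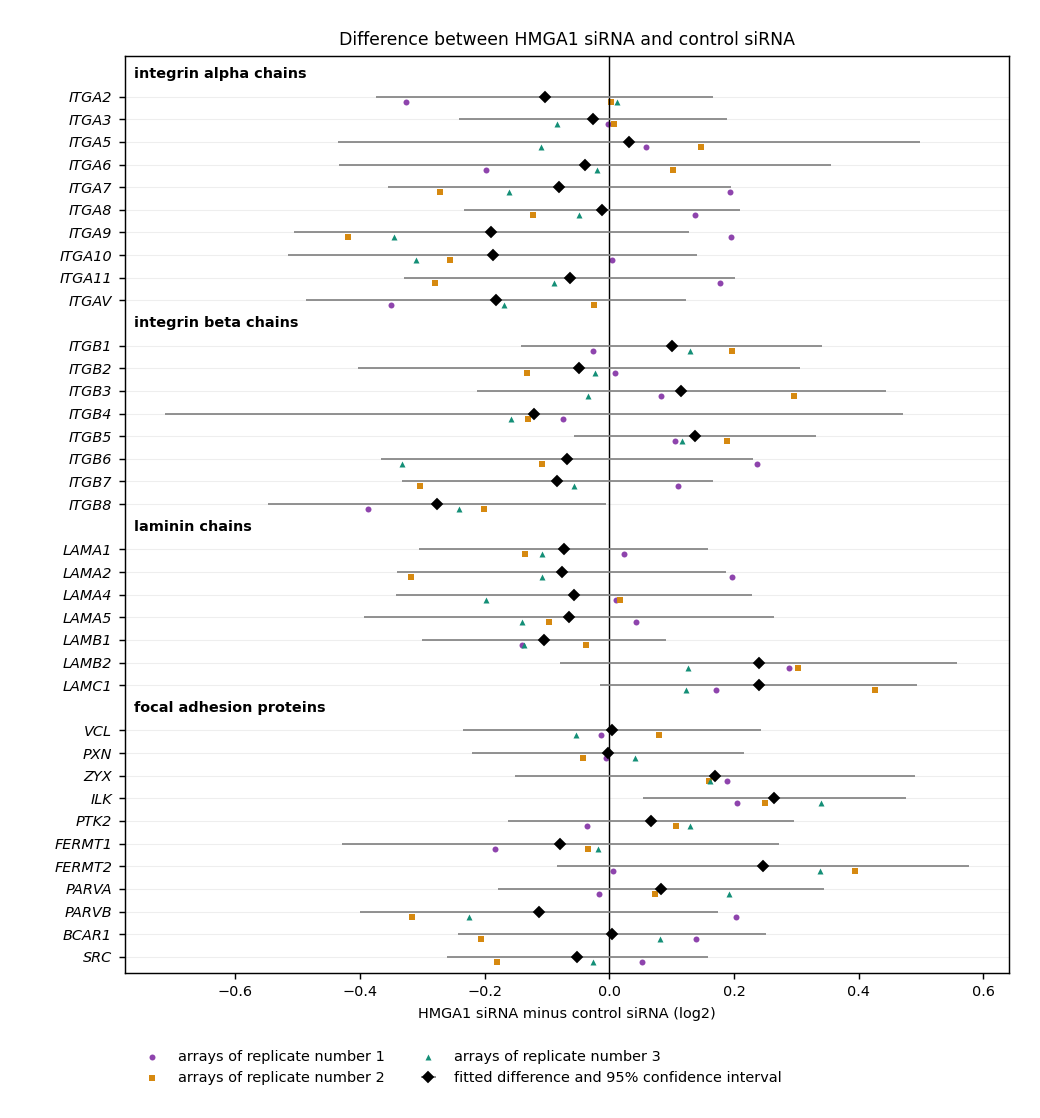
HMGA1 siRNA minus control siRNA (log2, x axis) for the 36 measured genes, with the fitted difference and its 95% confidence interval (black and grey) and the difference within each replicate number (coloured markers). Fitted values run from -0.28 for ITGB8 to 0.26 for ILK, and most intervals cross 0.

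By role, 1 of 10 alpha chains was above 0 and 9 below it (median -0.072), 3 of 8 beta chains were above 0 and 5 below it (median -0.058), and 2 of 7 laminin chains were above 0 and 5 below it (median -0.065). Of the 11 focal adhesion proteins, 7 were above 0 and 4 below it (median 0.0045). The median over all transcripts was -0.012. The sign went with the level of the gene in part. Of the 26 genes above background, 13 were above 0 and 13 below it (median 0.0011). Of all transcripts above background, 49.7% were below 0. Among the alpha chains above background, however, ITGA2, ITGA3, ITGA6, ITGA7 and ITGAV were below 0 and only ITGA5 was above it. All 10 genes not above background were below 0 (median -0.075), beside 61.5% of all transcripts not above background. For these 10 dim genes the difference within replicate number 1 was above 0 in 9, that within number 2 was below 0 in 9 and that within number 3 in 10. The median of all transcripts not above background was 6.42, 6.21 and 6.33 on the HMGA1 siRNA arrays and 6.31, 6.34 and 6.41 on the control siRNA arrays. HMGA1 siRNA replicate 2 was thus the lowest array for dim transcripts in general. Without this array 8 of the 10 dim genes were still below 0, with ITGA8 and ITGA11 above it, and their median was -0.028. With any other single array left out, 8 to 10 of the 10 were below 0. The median of the 36 genes was 0.0044 without HMGA1 siRNA replicate 2 and -0.050 with all arrays.

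Several receptors differed more between replicate numbers than between treatments. ITGB4, the laminin-binding chain of hemidesmosomes, was at 11.13, 10.94 and 11.69 on the HMGA1 siRNA arrays and at 11.21, 11.07 and 11.85 on the control siRNA arrays. ITGA5, the fibronectin receptor chain, was at 11.07, 11.19 and 11.53 on the HMGA1 siRNA arrays and at 11.01, 11.04 and 11.64 on the control siRNA arrays. ITGA6, the partner of ITGB4, was at 11.70, 11.98 and 12.25 on the HMGA1 siRNA arrays and at 11.90, 11.88 and 12.27 on the control siRNA arrays. In all of these, replicate 3 was the highest array of both groups. Over the mean of the other arrays, ITGB4 was higher on the replicate 3 array by 0.65 with HMGA1 siRNA and 0.71 with control siRNA, ITGA5 by 0.41 and 0.62, and ITGA6 by 0.41 and 0.38. ITGB2 was lower there, by -0.34 with HMGA1 siRNA and -0.38 with control siRNA.

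A difference of over 0.3 in the same direction in both groups was found for 3 of the 36 genes with replicate 3 higher (8.33%), beside 3.33% of all transcripts, and for 1 gene with replicate 3 lower (2.78%), beside 3.96%. The size of 0.3 and the replicate number were chosen after the values were seen, so these counts are a description. An F test in limma for any difference among the replicate numbers, beside the treatment, called 0% of all transcripts at an adjusted p of 0.05, and among the 36 genes the lowest adjusted p was that of ITGB4 (0.236). The labels do not say what the replicate numbers share, and the part of a shared batch in these values was not tested. The ITGB4 difference between treatments was -0.34 without HMGA1 siRNA replicate 3, 0.036 without HMGA1 siRNA replicate 2 and 0.12 without control siRNA replicate 3, so its direction changed with the array left out.

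**Figure D4:**
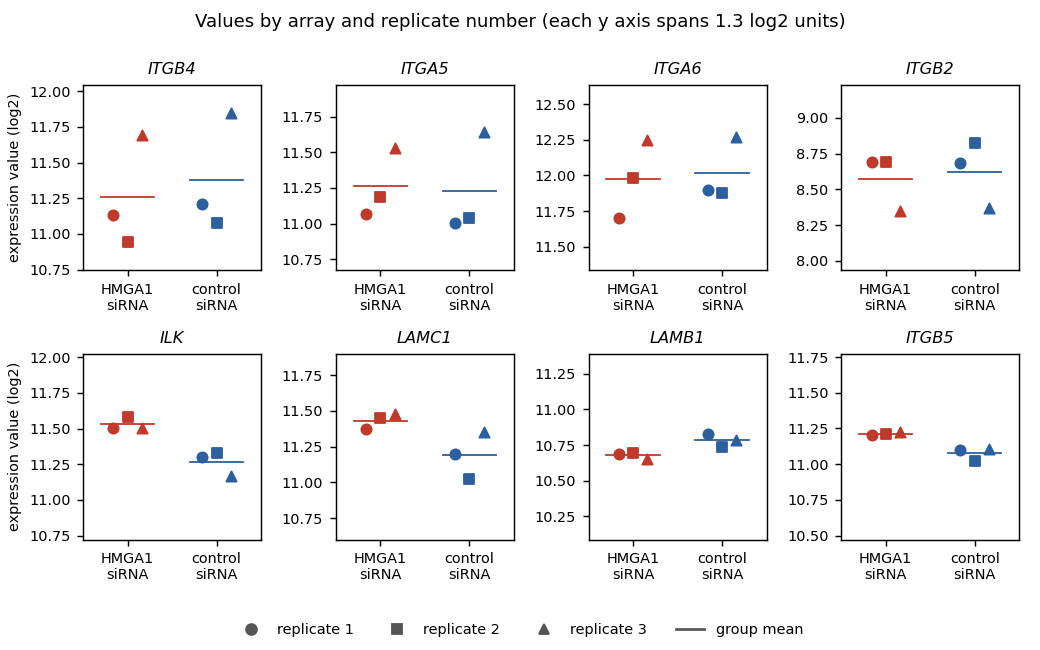
Expression values (log2, y axis, each panel spanning an equal range) of 8 genes on the HMGA1 siRNA arrays (red, left) and control siRNA arrays (blue, right), with the marker shape giving the replicate number and lines the group means. In the upper row replicate 3 is the highest array of both groups, as for ITGB4 at 11.69 and 11.85, or for ITGB2 the lowest. In the lower row the groups do not overlap, as for ILK with means of 11.53 and 11.27.

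Genes that act beside these were described from further lists. Of 40 other focal adhesion proteins 31 were measured and 28 were above background with control siRNA. None passed the test (0 of 31). Positive differences were found for 17 and negative ones for 14, around a median of 0.0035. CSRP1, a LIM protein that binds zyxin and alpha-actinin, was at 12.29, 12.38 and 11.99 on the HMGA1 siRNA arrays and at 11.99, 11.85 and 11.68 on the control siRNA arrays, a difference of 0.38 (standard error 0.13). TNS4, a tensin that lacks the actin-binding part, was at 11.72, 11.67 and 11.26 on the HMGA1 siRNA arrays and at 12.26, 12.22 and 11.68 on the control siRNA arrays, a difference of -0.51 (standard error 0.19). The groups of CSRP1 did not overlap and those of TNS4 did, at control siRNA replicate 3. CRKL, an adaptor bound by BCAR1, was at 0.14 and LPXN, a relative of paxillin, at -0.31.

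Of 20 integrin ligands 19 were measured, with 11 above 0 and 8 below it (median 0.034) and none past the test. FBN1, the microfibril protein fibrillin-1, was at 9.81, 10.02 and 9.57 on the HMGA1 siRNA arrays and at 9.40, 9.35 and 9.07 on the control siRNA arrays. Its groups did not overlap, and its difference was 0.53 (standard error 0.15, adjusted p = 1.00 in limma). COL1A2 was at 0.14, COL6A3 at -0.18 and ICAM1, a ligand of leukocyte integrins, at -0.16. FN1, the fibronectin bound by alpha5 beta1 and chosen after its values were seen, was at 11.79, 12.10 and 12.80 on the HMGA1 siRNA arrays and at 11.95, 11.94 and 12.95 on the control siRNA arrays. Like ITGA5 it was highest on the replicate 3 array of both groups. CDH1, a ligand of alphaE beta7 and also chosen after its values were seen, was lower on that array than on the mean of the others, by -1.62 with HMGA1 siRNA and -1.81 with control siRNA. Between treatments FN1 was at -0.048 (standard error 0.34) and CDH1 at -0.41 (standard error 0.60), with groups that overlapped.

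Of 14 genes of other laminin chains and the basement membrane, 8 were measured and 5 were above background. Differences were above 0 in 2 of the 8 and below it in 6, with none past the test. COL4A2, a chain of the collagen network of basement membranes, was at 9.48, 9.40 and 9.13 on the HMGA1 siRNA arrays and at 9.59, 9.75 and 9.58 on the control siRNA arrays. Every HMGA1 siRNA array was below every control siRNA array, and the difference of the group means was -0.30 (standard error 0.12). COL4A1, which is joined to COL4A2 in 1 collagen IV molecule, was at 0.11 and DST, the dystonin of hemidesmosomes, at 0.12. LAMB4 was at -0.16 but not above background, with means of 6.07 with HMGA1 siRNA and 6.23 with control siRNA. Of 20 integrin partners and other matrix receptors all 20 were measured and 19 were above background, with 11 above 0 and 9 below it (median 0.031) and none past the test. PLAUR, the urokinase receptor that associates with integrins, was at 11.44, 11.38 and 11.47 on the HMGA1 siRNA arrays and at 11.56, 11.59 and 11.63 on the control siRNA arrays, a difference of -0.16 (standard error 0.08) with groups that did not overlap. SDC1, a syndecan that binds matrix through its sugar chains, was at 0.17, ITGB1BP1, a protein that binds the tail of beta1, at 0.13, and the tetraspanin TSPAN8 at -0.22. Of 6 leukocyte and platelet integrin chains 3 were measured, ITGAL at 0.033, ITGAX at -0.17 and ITGA2B at -0.086, and 1 of them, ITGA2B, was above background, at 7.72 with HMGA1 siRNA and 7.80 with control siRNA.

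HMGA1 is known to bind the minor groove of AT-rich DNA through its AT-hooks, for which the letters AATT are a well-known core. The 100 bases before the start of LAMC1, ILK and LAMB1 are therefore shown, as the genes with groups that did not overlap and 1 promoter window each in the RefSeq table (build GRCh38.p14), with ITGB5 left out because it has several. Capitals mark AATT and the GC box GGGCGG, searched on both strands, and copies that overlap run together.
LAMC1 (chr1:183023320-183023419, plus strand): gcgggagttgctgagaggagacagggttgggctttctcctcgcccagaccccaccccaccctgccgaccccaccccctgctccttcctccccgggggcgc
ILK (chr11:6603674-6603773, plus strand): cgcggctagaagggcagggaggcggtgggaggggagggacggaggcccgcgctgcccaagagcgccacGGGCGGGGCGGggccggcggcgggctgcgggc
LAMB1 (chr7:108003162-108003261, minus strand): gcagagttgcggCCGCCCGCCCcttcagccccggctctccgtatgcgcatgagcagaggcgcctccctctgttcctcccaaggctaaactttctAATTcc

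These windows are rich in G and C. Over the 250 bases before the start, A and T made up 20.4% of the LAMC1 window, 27.2% of that of ILK and 29.6% of that of LAMB1, where LAMB1 alone of the genes shown held AATT, in 1 copy. Of 36 windows of the measured genes that the table holds (25 genes), 16.7% held AATT and 61.1% held GGGCGG, beside 43% and 42.6% of all 35116 windows. The median share of A and T was 31% in the windows of these genes and 42% in all windows. A match of letters is a description and does not show that a protein binds there, and binding of HMGA1 was not measured.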

How the data were processed

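RNA from 6 samples of MDA-MB-231 cells was measured on exon arrays. The table deposited by the authors holds log2 values per transcript, made with RMA (oligo package). In their processing notes the submitters list limma and the build hg18 as well, without versions. All 6 columns were used without further scaling. RMA leaves background signal in dim transcripts, which compresses their differences.

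Transcripts were named from the platform annotation, in which 14432 list 1 gene, 2408 several and 5171 are unnamed here. Of the single genes, 14404 matched a current RefSeq gene. The groups were compared with limma 3.58.1 under R 4.3.3 (functions lmFit and eBayes, no covariates, as in the study's methods), two-sided, with Benjamini-Hochberg adjustment over 22011 transcripts and a threshold of 0.05. No p was adjusted over the adhesion genes alone, and no set test was run. The members and lists were chosen with earlier results of these data known. Values on all arrays were given for genes above background whose groups did not overlap, for the 3 genes of smallest p in each role, and for beta and laminin chains above background. From other lists up to 2 genes per direction were named by smallest p. ITGA2, ITGA3, ITGA5 and ITGA6 were given besides, for their levels or their difference between replicate numbers, and FN1 and CDH1 likewise. Group means of LAMC3 were given because no listed trimer holds its chain.

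Alternatives were quantile normalization, median centring, a robust prior with a trend, array weights, a block for the replicate number, leaving out the dimmest 40% of transcripts, single-gene transcripts only, each array left out, both replicate 3 arrays left out, a threshold of 0.10, an unmoderated test, the mean over a gene's transcripts and other background limits. A term for replicate number 3 and the F test among replicate numbers were added after the data were seen. Promoter windows came from RefSeq (30 of 41 genes matched). The steps were tested on simulated data. Figures were drawn with matplotlib 3.10.9.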

Additional observations from a re-analysis of the deposited data

How the results depend on the processing

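No adhesion gene passed an adjusted p of 0.05 in limma in any setting run, and the lowest adjusted p was 0.0632, for LAMC1 with array weights. Array weights called 198 of all transcripts, in a fit that gave HMGA1 siRNA replicate 3 a weight of 6.80 and the other arrays 0.275 to 2.21. At an unadjusted p under 0.05 that fit held 11 of the 36 genes, beside 27.6% of all transcripts. With the replicate block 0 transcripts and 0 adhesion genes were called (lowest adjusted p among these genes 0.948). Deviations of same-numbered arrays from their group means correlated at -0.201, 0.255 and 0.533 for numbers 1, 2 and 3. Those of differently numbered arrays correlated from -0.536 to 0.419, so only number 3 exceeded all of these. Not every same-numbered value is above 0.1 and the labels do not say what a number marks. The numbers were therefore not taken to pair the samples, and whether same-numbered arrays share a batch was not tested. The median log2 fold change of the 36 genes was 0.0045 with the dimmest 40% of transcripts left out, which keeps fewer of the genes, and ran from -0.059 to 0.0044 with 1 array left out. The count of genes whose groups do not overlap ran from 5 to 13 (13.9% to 36.1%) with 1 array left out, beside 12.5% to 26.9% of all transcripts. It was 5, or 13.9%, without HMGA1 siRNA replicate 2 (15.4% of all transcripts) and without control siRNA replicate 1 (16.6% of all transcripts). Without both replicate 3 arrays the count was 9, or 25%, beside 22.8% of all transcripts. Fewer samples make separation easier in these settings. The number above background stayed between 21 and 27.

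Of 565 log2 fold changes recomputed for single genes, 513 kept their direction and 52 turned it, all of them in genes that did not pass the test, and 16 of the 36 genes turned in no setting. The causes were not tested. Turned values were 0.0042 for ITGA8, -0.0099 for VCL and -0.020 for BCAR1 after quantile normalization, and 0.0072 for ITGA8 and 0.016 for PXN after median centring. With array weights they were 0.085 for ITGA2, 0.045 for ITGA3, 0.27 for ITGA6, 0.014 for ITGA8, -0.15 for ITGB3, 0.42 for ITGB4, 0.13 for LAMA5, -0.14 for VCL, 0.10 for PXN, -0.042 for ZYX, -0.038 for PARVA and -0.066 for BCAR1. Without both replicate 3 arrays they were 0.0029 for ITGA3, 0.0075 for ITGA8, 0.064 for ITGB6, 0.013 for LAMA4 and -0.034 for BCAR1, and with the mean over a gene's transcripts 0.028 for PXN. With 1 array left out, values ran from -0.061 to 0.028 for ITGA3, -0.10 to 0.24 for ITGA5, -0.17 to 0.098 for ITGA6, -0.19 to 0.0072 for ITGA7, -0.060 to 0.045 for ITGA8, -0.13 to 0.024 for ITGA11, -0.18 to 0.066 for ITGB2, -0.34 to 0.12 for ITGB4, -0.15 to 0.035 for ITGB6 and -0.14 to 0.0015 for ITGB7. They ran from -0.13 to 0.058 for LAMA4, -0.16 to 0.044 for LAMA5, -0.058 to 0.074 for VCL, -0.047 to 0.049 for PXN, -0.21 to 0.025 for FERMT1, -0.0057 to 0.14 for PARVA and -0.063 to 0.057 for BCAR1.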
